A study of Mus musculus with 8 samples.

Results

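GW4064 without glucagon was compared with its solvent, dimethyl sulfoxide (DMSO), in primary mouse hepatocytes on 4 of the 8 arrays of the study. The arrays were taken by their titles: 2 of cells given GW4064 only and 2 of cells given DMSO only, paired by experiment number. The cells were hepatocytes of male C57BL/6J mice, exposed for 6 h to DMSO or to 2 µM GW4064, in a medium that gave every group 100 nM dexamethasone, a synthetic glucocorticoid. The age of the mice is not given in the sources used here. Each experiment used a pool of hepatocytes from 3 mice, and 2 technical replicates were combined into each sample, so n = 2 pools per group, and precision is limited by that number of arrays. The other 4 arrays held cells of the same experiments with 100 nM glucagon, without or with 2 µM GW4064. They are used here as a separate reading of the same agonist, since that difference shares no array with the first. Levels are log2 signals, on which a difference of 1 is a doubling, and 13845 genes were bright enough to test.

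GW4064 is a laboratory-made compound that switches on FXR, the farnesoid X receptor encoded by Nr1h4, which bile acids bind in the nucleus. Together with its partner, the retinoid X receptor, FXR binds inverted repeats of a hexamer spaced by a single base (IR-1 elements) and raises transcription of nearby genes. In hepatocytes it is known for raising the pumps that move bile salts and phospholipids into bile. It is also known for raising Nr0b2, a repressor that in turn lowers bile acid synthesis. The comparison asks what the agonist does to hepatocyte transcripts when no fasting hormone is present.

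No gene passed an adjusted p of 0.05 for GW4064 against DMSO (0 of 13845, 0%), by limma with Benjamini-Hochberg adjustment on all 8 arrays with the experiment as a block, and the smallest adjusted p was 0.786. At an unadjusted p under 0.05 there were 720 genes (5.20%), 281 higher and 439 lower. What follows is therefore a description of each experiment's values, with limma's standard error (SE), and no single gene is called changed. Transcripts that were higher with GW4064 in both experiments included those of the bile exporters Abcb11 and Abcb4, of Osgin1, of the transcription factor Mybl1, of the interleukin 22 receptor Il22ra1 and of periplakin, Ppl. Transcripts that were lower in both included Depp1 and the cell cycle inhibitor Cdkn1b.

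The GW4064 array of experiment 2 stood apart from the other 7 arrays of the series. Its low-end signal was raised: the 10th percentile of its probe sets lay at 2.73, against 2.62 to 2.66 on the others, and the median at 3.57, against 3.42 to 3.46. Its 75th percentile was lower, 5.34 against 5.45 to 5.52. Olfactory and vomeronasal receptor genes among those tested, which are dim in these cells, had a median of 3.68 on it and of 3.27 to 3.31 on the others. The differences of the 2 experiments are therefore given separately for the genes named here. The share of this array's raised low end in any single gene's difference was not tested.

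The differences of experiment 2 varied with how bright a gene was. Its GW4064 array is the only one of that pool without glucagon, so array and treatment cannot be told apart there. In experiment 2 the median difference was 0.10 for the 3343 genes with a mean DMSO signal up to 3.5. It was -0.22 between 5 and 6, and -0.01 above 10. In experiment 1 the same medians were -0.02, 0.02 and 0.01. With glucagon, where both arrays of each pair were ordinary, every such median lay between -0.02 and 0.02.

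**Figure D1:**
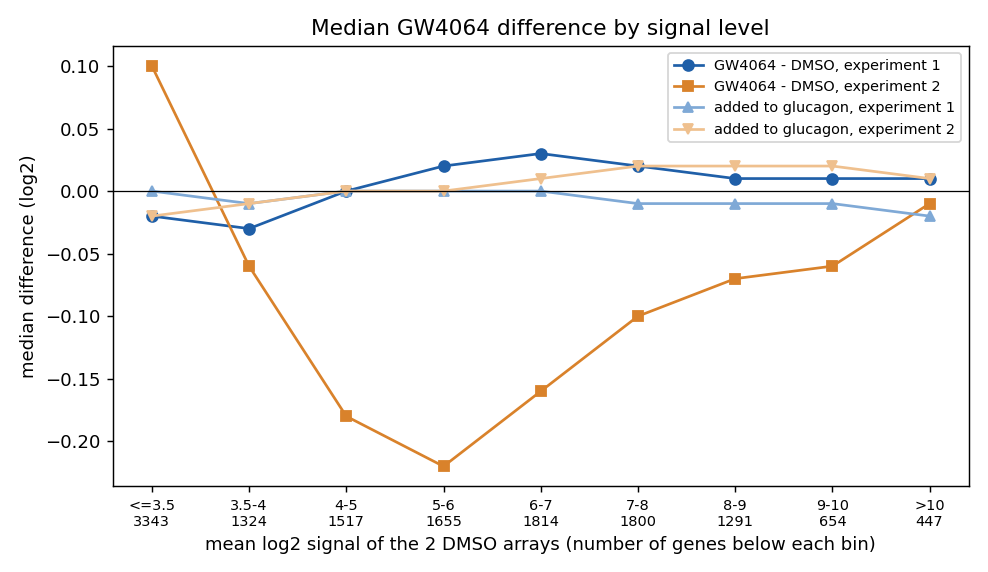
Median log2 difference between the GW4064 array and its control array, for genes binned by mean DMSO signal (x axis, log2, with the number of genes under each bin), in experiments 1 and 2 and for GW4064 added to glucagon. The line of GW4064 against DMSO in experiment 2 starts at 0.10, dips to -0.22 in the bin from 5 to 6 and returns to -0.01 above 10, while the other 3 lines stay within 0.03 of 0.

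The pools differed more from each other than the agonist changed the first of them. Between the 2 DMSO arrays 993 genes (7.17%) differed at least 1.5-fold. Between GW4064 and DMSO 152 genes did so in experiment 1 (95 higher, 57 lower) and 1622 in experiment 2 (585 higher, 1037 lower). Across genes, which are not independent replicates, the differences of the 2 experiments had a Pearson correlation of 0.004 over all 13845 and of 0.038 over the 7580 with a mean signal of at least 5 on the 4 arrays. The same correlation for glucagon against DMSO in these pools was 0.704 among genes that bright. For GW4064 added to glucagon, on 4 ordinary arrays, it was also low, 0.099 over all genes and 0.182 among genes that bright. All these pairs of differences share the layout of the array and, within a pool, the same cells.

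Only 18 genes (0.130%) were at least 1.5-fold higher in both experiments, and 12 (0.0867%) were at least 1.5-fold lower in both. As many as 18 (0.130%) were at least 1.5-fold apart in opposite directions. Counting differences of any size, 20.5% of genes were higher in both experiments and 29.4% were lower in both, around a median difference of -0.03. Among genes with a mean signal of at least 5, the numbers at least 1.5-fold apart were 8 higher in both, 5 lower in both and 4 opposed.

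**Figure D2:**
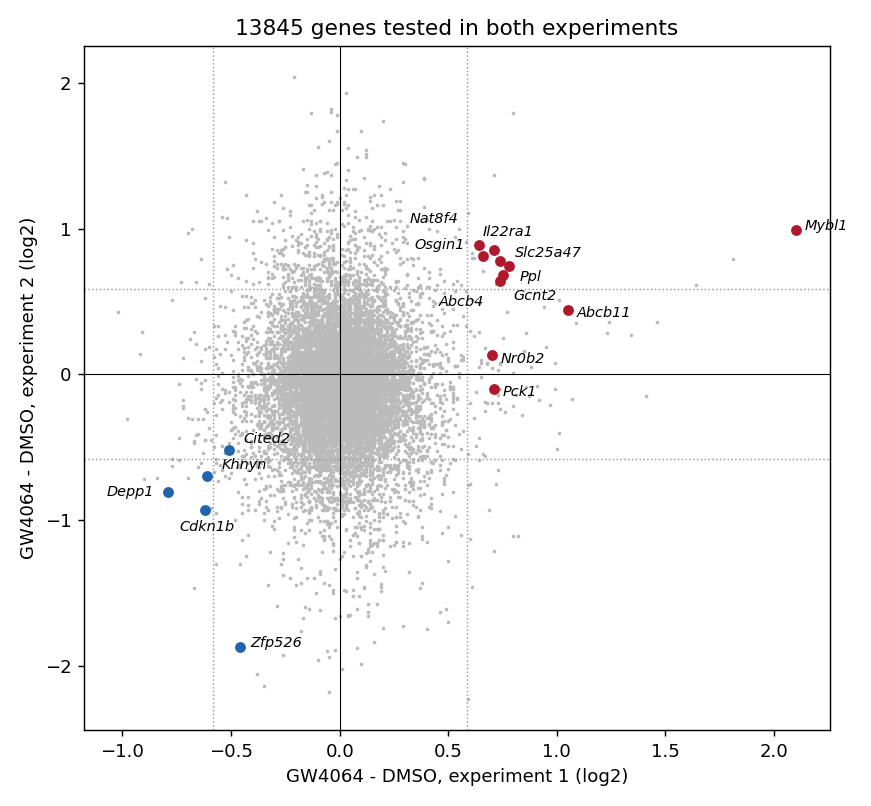
Each grey point is a tested gene, with its GW4064 minus DMSO difference in experiment 1 on the x axis and in experiment 2 on the y axis, both log2, and dotted lines at 1.5-fold. The cloud is wider in experiment 2 (SD 0.38) than in experiment 1 (SD 0.19), the 8 brighter genes past 1.5-fold in both experiments lie at the upper right with Mybl1 outermost (2.10 and 0.99), and Abcb11, Nr0b2 and Pck1 lie past the line in experiment 1 only.

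The list of genes known to be induced by FXR had 22 of 26 members measured. Their median difference was 0.10, beside -0.03 over all genes, and 0 passed the adjusted test. By experiment the medians were 0.08 and 0.13. In experiment 1, whose 2 arrays were both ordinary, 15 of the 22 were higher with GW4064 (68.2%, against 51.1% of all genes). There 6 were at least 1.5-fold higher, a size that 0.686% of all genes reached: Abcb11, Abcb4, Fgf21, Nr0b2, Osgin1 and Pdk4. In experiment 2, 13 were higher (against 5535 of all 13845 genes) and 2 were at least 1.5-fold higher, Abcb4 and Osgin1, against 4.23% of all genes. In both experiments together 11 were higher and 5 lower, and under cyclic loess, which levels the brightness trend between arrays, 12 and 5. The median was 0.03 when the model left out the GW4064 array of experiment 2 and 0.17 when it left out that of experiment 1. It was 0.21 without the DMSO array of experiment 2 and turned negative, to -0.05, without that of experiment 1. The list was chosen with earlier results of these data known. Its counts and medians beside those of all genes therefore describe the members and are no test of an FXR response.

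Abcb11 encodes the bile salt export pump of the canalicular membrane (probe set 17386177). It read 6.64 and 6.61 on the DMSO arrays of experiments 1 and 2, and 7.69 and 7.05 on the GW4064 arrays. Both GW4064 arrays lay above both DMSO arrays, which was so for 9.97% of all genes. The differences were 1.05 in experiment 1 and 0.44 in experiment 2, on average 0.75 (SE 0.29, 1.68-fold, limma adjusted p = 0.786). When the model left out the GW4064 array of experiment 2, the difference was 1.25, above both measured differences. That value rests on 1 GW4064 array and on a shift between the pools estimated from the other arrays. It is therefore no sign of a larger effect.

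The promoter of Abcb11 is printed because, of the 38 promoters examined for FXR-induced genes and for the genes most alike in both experiments, it alone held an IR-1 element with at most 1 mismatch. The window is the 250 bases before the RefSeq start in GRCm38.p6, chr2:69342617-69342866, minus strand, with the best match to the motif (AGGTCA, any base, TGACCT) in capitals. It is read 5′ to 3′ along the gene:
Abcb11 promoter: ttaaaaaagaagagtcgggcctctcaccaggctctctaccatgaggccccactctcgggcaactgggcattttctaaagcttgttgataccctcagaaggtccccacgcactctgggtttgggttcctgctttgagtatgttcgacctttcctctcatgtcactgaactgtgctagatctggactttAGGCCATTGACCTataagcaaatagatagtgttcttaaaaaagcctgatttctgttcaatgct
The element lies from -63 to -51 relative to the start (chr2:69342667-69342679).

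The motif is its own reverse complement, so both strands were searched at once. It was searched in 300 bases, from 250 before to 50 after the start, and a match with at most 1 mismatch is found in 27 of 32851 RefSeq promoters (0.0822%). At most 3 mismatches are found in 11.4% of all promoters and in 6 of the 38 examined (15.8%). These shares are not alike, since the first counts every start and the second the best start of each gene. The second also leaves out the promoters of 1 chromosome, which the first keeps. The 38 come from 50 genes, and the others, Mybl1 and Ppl among them, had no window examined. Bst2, lower with GW4064 in both experiments (-0.46 and -0.62), is among the 6, and its match is not printed. The others besides Abcb11 are Osgin1, Insig2, Fgg and Slc25a47. The best matches of these are set beside that of Abcb11, with capitals for letters that match the motif and lower case for mismatches and for the free spacer base:
Abcb11: AGGcCAtTGACCT
Osgin1: AGtTCAtTcACCc
Insig2: tGGTCttTGACCc
Fgg: AGGTCAgaacCCT
Slc25a47: AGGTCtggGAgCT
A match describes the letters of the window and was not tested as a binding site.

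Abcb4, the phospholipid flippase of the canalicular membrane (probe set 17434585), read 6.90 and 7.48 with DMSO and 7.64 and 8.12 with GW4064. Its differences of 0.74 and 0.64 were alike, and the groups did not overlap (mean difference 0.69, SE 0.19, 1.61-fold). Abcc2, the canalicular pump for bilirubin glucuronides and other conjugates, was brighter and flat, at 9.61 and 9.73 with DMSO and 9.63 and 9.89 with GW4064. Among the other 6 canalicular exporters none was at least 1.5-fold higher in either experiment. Abcb1a, a drug efflux pump, differed by 0.07 and -0.51, and Abcg8, a subunit of the sterol exporter, by 0.02 and -0.45. Of all 9 canalicular genes 3 were higher in both experiments and 2 lower in both, with medians of 0.02 in experiment 1 and -0.25 in experiment 2, and with glucagon 6 were higher in both and 0 lower in both.

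Nr0b2 encodes the small heterodimer partner, the repressor through which FXR lowers bile acid synthesis (probe set 17419622). It read 3.52 and 3.63 with DMSO and 4.23 and 3.76 with GW4064. These are dim signals, close to the 3.13 to 3.27 that marks the 40th percentile of the arrays, so a small difference of signal there is hard to read. Its difference was 0.70 in experiment 1 and 0.13 in experiment 2 (mean 0.42, SE 0.16). Mafg, another FXR-induced repressor, differed by 0.17 and 0.28. Zfp36l1, which promotes the decay of messenger RNAs, differed by -0.17 and -0.20.

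Osgin1, a stress-inducible gene that FXR and NRF2 are both known to raise (probe set 17506081), read 10.69 and 9.43 with DMSO and 11.36 and 10.24 with GW4064. The pools lay so far apart that the groups overlapped, yet within each pool GW4064 was higher, by 0.66 and 0.81 (mean 0.74, SE 0.26, 1.67-fold). Of the 13 measured genes of the NRF2 list Osgin1 alone was at least 1.5-fold higher in either experiment. The list's medians were -0.03 and 0.03 in the 2 experiments.

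Fgf21, a hormone of fasting, read 4.94 and 4.49 with DMSO and 5.58 and 4.78 with GW4064, differences of 0.64 and 0.29. Pdk4, the kinase that holds back pyruvate oxidation, was split between the experiments: 6.49 became 7.24 in experiment 1, and 7.31 became 7.06 in experiment 2. Insig2, which restrains the maturation of sterol regulatory proteins, differed by 0.56 and 0.13. Fgb, the fibrinogen beta chain, differed by 0.01 in each experiment, its partner chain Fgg by -0.12 and 0.41, the apolipoprotein gene Apoc2 by -0.08 and -0.14, and the kininogen gene Kng1 by 0.18 and -0.03. The 5 members lower in both experiments were Apoc2, Baat, Fetub, Vldlr and Zfp36l1, and the lowest was Vldlr, the receptor for very-low-density lipoproteins, at -0.22 on average.

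**Figure D3:**
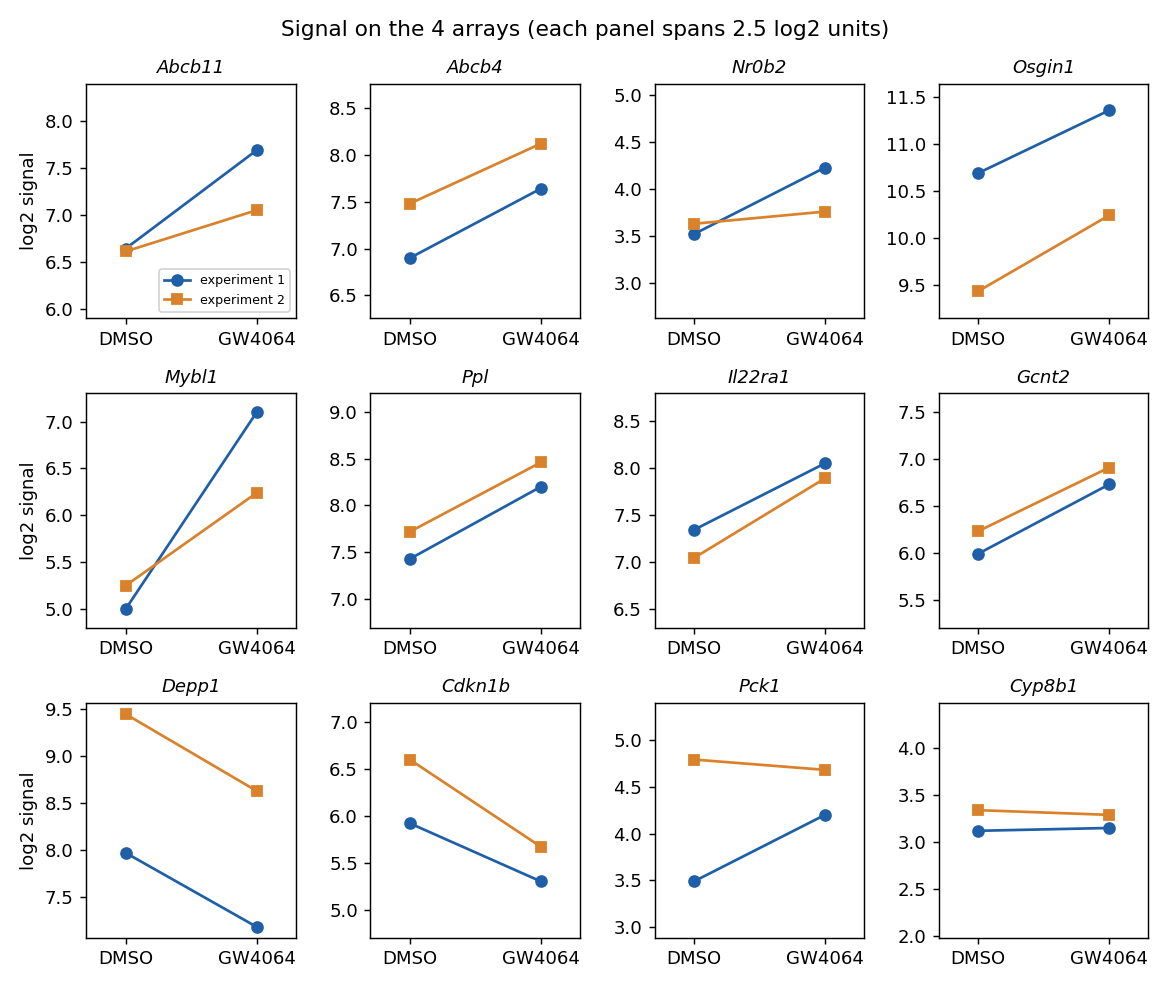
Log2 signal of 12 genes on the DMSO and GW4064 arrays, with a line joining the arrays of each experiment and every panel spanning the same range of 2.5. Abcb4, Osgin1, Ppl, Il22ra1 and Gcnt2 slope upward alike in both experiments, Abcb11, Nr0b2 and Mybl1 slope more in experiment 1, Depp1 and Cdkn1b slope downward, Pck1 is split, and Cyp8b1 is flat at 3.12 to 3.34.

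The receptor itself was not higher with its agonist. Nr1h4 read 6.76 and 6.48 with DMSO and 6.65 and 6.10 with GW4064 (differences -0.11 and -0.38). Its partners Rxra and Rxrb differed by -0.14 and 0.01, and by 0.28 and -0.04. Foxa2, a pioneer factor of liver genes, differed by -0.26 and -0.18. Sirt1, a deacetylase that acts on FXR, differed by -0.02 and 0.48. Of the 15 measured members of the receptor and cofactor list 0 were higher in both experiments and 5 lower in both. Their median of -0.04 in experiment 2 turned to 0.12 under cyclic loess, so it has no settled sign there.

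Bile acid synthesis, the process that FXR is known to lower through Nr0b2, was flat at 6 h. The 10 measured enzymes of 11 had a median of 0.01, ranging from -0.11 to 0.30, with 1 higher in both experiments and 1 lower in both. Cyp7a1, the rate-limiting enzyme, did not clear the filter, its highest signal on any array being 3.38. Cyp8b1, which sets the share of cholic acid, was also dim and read 3.12 and 3.34 with DMSO and 3.15 and 3.29 with GW4064. Cyp27a1, the mitochondrial sterol hydroxylase, differed by 0.12 and -0.26, and Cyp7b1 by -0.21 and 0.24. Cyp2c70, which makes muricholic acids in the mouse, differed by -0.04 and -0.18 from a bright 12.16 and 12.17. The low signal of Cyp7a1 and Cyp8b1 leaves no room to see a decrease in these cells.

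Conjugation and uptake gave no common direction. Baat, which joins bile acids to taurine or glycine and is on the FXR-induced list, differed by -0.05 and -0.17, and Slc27a5, the bile acid ligase, by 0.20 and -0.01. Of the 6 conjugation genes measured 0 were higher and 1 lower in both experiments, with medians of 0.11 and -0.10, whereas with glucagon GW4064 left 0 higher and 5 lower in both, with Baat at -0.47 and -0.46. At the basolateral membrane 3 of 7 measured transporters were higher in both and 1 lower in both, with medians of 0.09 and 0.12. The sodium-dependent uptake carrier Slc10a1 read 6.12 and 7.84 with DMSO and 6.21 and 8.12 with GW4064. Abcc4, an efflux pump of the same membrane, differed by -0.13 and -0.46. The basolateral exporter gene Slc51a did not clear the filter, at 2.91 or below on every array.

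Gluconeogenic genes were of interest because the study asks about FXR in fasting glucose production. Pck1, the cytosolic phosphoenolpyruvate carboxykinase (probe set 17380222), read 3.49 and 4.79 with DMSO and 4.20 and 4.68 with GW4064. The difference was 0.71 in experiment 1 and -0.10 in experiment 2, and the latter became 0.05 under cyclic loess. G6pc, the glucose-6-phosphatase, stayed at 5.93 and 6.03 with DMSO and 5.94 and 6.03 with GW4064. Fbp1, the fructose bisphosphatase, differed by 0.17 and 0.11, and Pcx, the pyruvate carboxylase, by 0.07 and 0.02. Ppargc1a, a coactivator of the pathway, differed by -0.05 and -0.21. The list had 7 of 16 measured genes higher in both experiments and 3 lower in both, with a median of 0.09. By experiment 12 were higher in the first and 8 in the second, with medians of 0.04 and 0.00. Pklr, the glycolytic pyruvate kinase, read 9.33 and 9.03 with DMSO and 9.57 and 9.24 with GW4064.

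Signalling genes of the glucagon pathway were measured without the hormone. Gcgr, the glucagon receptor, differed by -0.17 and -0.31, Prkaca, a catalytic subunit of protein kinase A, by 0.09 and 0.34, and Creb1, its transcription factor target, by -0.01 and 0.02. Nr4a1, an immediate target of cyclic AMP, differed by 0.03 and 0.18. Among the 19 cyclic AMP response genes 2 had an unadjusted p under 0.05 by limma, beside 5.20% of all genes. These were Sik1, a kinase that feeds back on CREB coactivators, which differed by 0.95 and 0.19, and the early response factor Egr1, at 0.18 and 0.79. Each was at least 1.5-fold higher in a different experiment.

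The brighter genes with the largest difference shared by both experiments were led by Mybl1, a transcription factor of the MYB family (probe set 17221158). It read 5.0 and 5.25 with DMSO and 7.10 and 6.24 with GW4064, differences of 2.10 and 0.99 (mean 1.54, SE 0.34, 2.91-fold). Without the GW4064 array of experiment 2 the model's difference was 2.17, which rests on 1 GW4064 array. Il22ra1, a subunit of the interleukin 22 receptor, read 7.34 and 7.04 with DMSO and 8.05 and 7.89 with GW4064 (differences 0.71 and 0.85, SE 0.11), with the smallest p of all genes. Ppl, a cytoskeletal linker of cell junctions, read 7.43 and 7.72 with DMSO and 8.20 and 8.46 with GW4064 (differences 0.78 and 0.74, SE 0.10). All 3 were picked for being higher in both experiments, and in each the GW4064 arrays lay above both DMSO arrays, as in 9.97% of all genes.

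Gcnt2, which builds branched carbohydrate chains, read 5.99 and 6.23 with DMSO and 6.73 and 6.91 with GW4064. Slc25a47, a mitochondrial carrier of the liver, read 5.77 and 7.21 with DMSO and 6.50 and 8.00 with GW4064. Its pools lay further apart than its treatments. Nat8f4, of the N-acetyltransferase 8 family, differed by 0.64 and 0.89. The remaining higher genes among the first 15 were Zbtb24, Iffo2, Zfp869, Gprc5c, Fmo5 and Zfp493, plus 1 predicted gene. The smaller of the 2 differences was at least 0.45 in each of the 15. These genes were chosen for this pattern, so their differences are a description and carry no test.

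On the lower side Depp1, a gene induced by fasting and by FOXO factors (probe set 17462145), read 7.97 and 9.45 with DMSO and 7.18 and 8.63 with GW4064. The differences of -0.79 and -0.81 were nearly equal although the pools differed by more than that. Cdkn1b, the cell cycle inhibitor p27, read 5.92 and 6.60 with DMSO and 5.30 and 5.67 with GW4064. Khnyn differed by -0.61 and -0.70, Avpr1a, the vasopressin receptor of hepatocytes, by -0.56 and -0.73, and Cited2, a CREB-binding protein partner, by -0.51 and -0.52. Bst2, an interferon-induced antiviral protein, differed by -0.46 and -0.62. The others were Mrgpra1, Btbd35f2, Cdc42ep5, B4galt6, Grb7, Olfr1226, Fezf1, Mir3473c and Zfp526. In experiment 2 the median gene with a mean signal of at least 5 differed by -0.11, and under cyclic loess 6 of the 12 genes at least 1.5-fold lower in both experiments were still so, Depp1 and Cdkn1b among them. For genes at least 1.5-fold higher, 16 of 18 were still so.

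The glucagon pair gave a reading of these genes on arrays that did not choose them. Of the 8 brighter genes at least 1.5-fold higher in both experiments, 7 were higher again in both experiments when GW4064 was added to glucagon and 0 were lower in both, beside 25.5% and 27.0% of all genes. Their median difference there was 0.52. Mybl1 differed by 2.35 and 1.78, Osgin1 by 0.91 and 0.96, Ppl by 0.63 and 0.49, Abcb4 by 0.57 and 0.47, Il22ra1 by 0.50 and 0.55, Gcnt2 by 0.34 and 0.55, and Nat8f4 by 0.19 and 0.36. The exception was Slc25a47, at 0.52 and -0.21. The 10 dimmer genes of the same count split into 4 higher and 5 lower in both.

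The 5 brighter genes that were lower behaved otherwise, with 0 higher and 2 lower in both experiments of the glucagon pair and a median of -0.04. Depp1 differed there by -0.55 and -0.29 and Khnyn by -0.26 and -0.11, whereas Cdkn1b differed by -0.20 and 0.12. Of the 15 higher and 15 lower genes named above, 11 of the higher were again higher in both and 7 of the lower were again lower in both. Among the FXR-induced genes Abcb11 differed by 0.56 and 0.29 with glucagon, Nr0b2 by 0.31 and 0.24, and Fgf21 by -0.35 and 0.23. No gene passed for GW4064 on top of glucagon in the 8-array fit (0 by limma, 194 at an unadjusted p under 0.05), nor for the difference between the 2 settings (0, with 332 at an unadjusted p under 0.05).

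**Figure D4:**
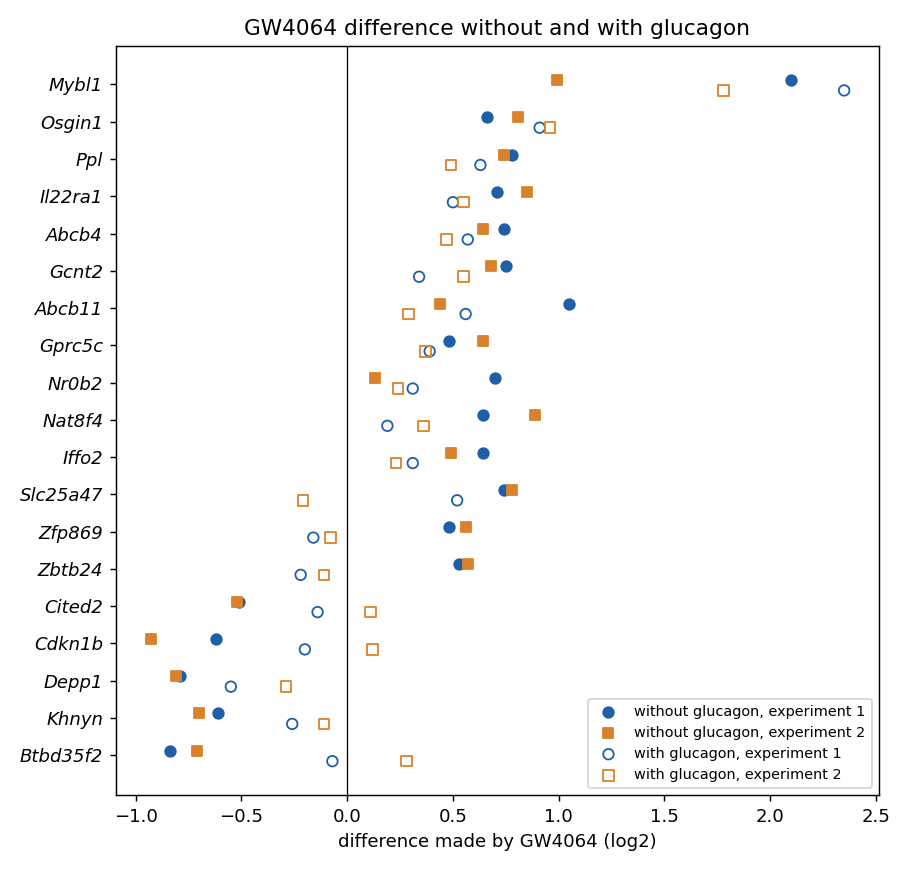
Log2 difference made by GW4064 (x axis) for 19 genes, with filled symbols for GW4064 against DMSO and open symbols for GW4064 added to glucagon, circles for experiment 1 and squares for experiment 2. From Mybl1 to Iffo2 all 4 symbols lie right of 0, Zfp869 and Zbtb24 have filled symbols on the right and open ones on the left, and of the 5 lower genes only Depp1 and Khnyn have all 4 symbols on the left.

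Other liver programmes were read from the remaining lists. Of the 401 genes on all 28 lists 328 were tested, 0 passed, and 12 had an unadjusted p under 0.05. These counts include the FXR and bile acid lists described above. The remaining 73 were not tested here, 29 because they were below the filter and 13 because their probe set is shared with another gene. The share of 12 of 328 (3.66%) lay below the 5.20% of all genes. Of the 12, 5 were among the 22 measured FXR-induced genes, a list chosen with earlier results of these data known. Beside medians over all genes of 0.00 in experiment 1 and -0.07 in experiment 2, the list medians in the 2 experiments were 0.03 and -0.01 for lipoproteins (4 of 15 higher and 2 lower in both), 0.06 and -0.02 for complement and coagulation (6 and 3 of 21), and 0.02 and 0.04 for the acute phase (5 and 1 of 15). They were -0.04 and -0.12 for lipogenesis (2 and 5 of 16), -0.04 and -0.15 for cholesterol synthesis (3 and 6 of 14), and 0.03 and 0.01 for the ATF4 and unfolded protein response (7 and 3 of 19). Those of xenobiotic metabolism (4 and 5 of 16) were 0.01 and -0.08, of the urea cycle (5 and 2 of 11) 0.05 and 0.05, and of methionine metabolism (5 and 2 of 13) 0.05 and -0.06.

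Lists of fuel use were split between the experiments. Of 12 measured glycolysis genes 9 were higher in experiment 1 and 3 in experiment 2, with medians of 0.12 and -0.09, and 3 were higher and 3 lower in both. Of 14 genes of fatty acid oxidation and ketogenesis 9 were higher in experiment 1 and 4 in experiment 2, with medians of 0.01 and -0.14. Under cyclic loess the medians of experiment 2 came to 0.00 and -0.05. Khk, the ketohexokinase that admits fructose, differed by 0.32 and 0.26, and Gckr, which restrains glucokinase, by -0.02 and -0.35.

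Single genes on these lists stood out from their medians. Nr1i2, the pregnane X receptor that senses drugs and bile acids, read 5.97 and 6.62 with DMSO and 7.30 and 6.89 with GW4064 (differences 1.34 and 0.27, SE 0.28), and with glucagon it differed by 1.53 and 0.80. All 4 of its differences were positive, the larger of each pair in experiment 1. Apcs, the serum amyloid P component, differed by -0.28 and -0.60. Ass1, the argininosuccinate synthase, differed by -0.03 and -1.17, so its difference came from experiment 2 alone, and Ppara, the nuclear receptor of fatty acid oxidation, was the same, at -0.05 and -1.11.

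FXR is known as a brake on autophagy genes in the fed liver. The autophagy list had the lowest median of the pathway lists, -0.14. Of its 15 measured genes 2 were higher in both experiments and 11 lower in both, beside 20.5% and 29.4% of all genes. All 15 had a mean signal of at least 5.41, and in experiment 2 the median of all genes at 5 or more was -0.11. The list's median was -0.04 in experiment 1 and -0.20 in experiment 2, and the latter came to -0.06 under cyclic loess, with 7 lower in both. Gabarapl1, which coats autophagosomes, differed by -0.33 and -0.60, the kinase Ulk1, which starts the process, by -0.19 and -0.49, and Pik3c3, its lipid kinase, by -0.27 and -0.69. With glucagon the list's median was -0.03, with 4 higher and 5 lower in both experiments. The circadian list had medians of -0.03 and -0.11 in the 2 experiments, with 3 of 15 higher in both and 7 lower in both, and Tef, a clock output factor, differed by -0.21 and -0.77.

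The labelled cell type was checked against marker lists, with the limit that levels of different probe sets are not on a common scale. Of 14 hepatocyte markers 13 cleared the filter, and their median signal ran from 11.23 to 11.75 over the 4 arrays. The dimmest of them was Ass1, at 4.19 and 4.48 with DMSO. Alb, serum albumin, read 12.99 and 13.07 with DMSO and 13.01 and 13.11 with GW4064. Alb lies near the top of the scale, so it could hardly have been higher. Median signals of the other cell types lay between 3.21 and 3.28 for 10 Kupffer cell and macrophage markers, 3.89 and 4.42 for 10 endothelial markers, and 4.55 and 4.87 for 5 of 12 stellate cell markers. They were 3.48 to 3.64 for 4 of 10 bile duct markers and 3.26 to 3.34 for 4 of 12 lymphocyte and neutrophil markers, close to the 40th percentile. Single markers lay well above these medians. Cd68, which macrophages carry in lysosomes, was the brightest, at 10.09 and 10.63 with DMSO and 10.10 and 10.34 with GW4064. The endothelial marker Cdh5 read 6.61 and 6.21 with DMSO and 6.66 and 6.47 with GW4064, and the brightest of its list averaged 6.96. The brightest stellate cell marker, Reln, averaged 5.65. Sox9, a bile duct marker that hepatocytes in culture can also make, read 6.88 and 6.83 with DMSO and 7.88 and 6.32 with GW4064, while Krt19, Krt23 and Epcam stayed within 0.13 of their DMSO values. In pooled cells, fewer cells of a type and less RNA per cell cannot be told apart.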

How the data were processed

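Per the labels, primary hepatocyte RNA was hybridised to an Affymetrix mouse gene array and processed by the authors in GeneSpring. How GeneSpring corrected, summarised and normalized the signals is not stated in the sources used here. The deposited values were taken as log2 signals, a scale read from their range, and used unchanged. Of 41345 probe sets 23521 carry 1 gene symbol in the platform annotation, 1814 several and 16010 none. Probe sets above their array's 40th percentile on at least 2 arrays were kept, and for the 615 genes with several the one with the highest mean, which left 13845 genes.

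limma 3.58.1 (R 4.3.3) fitted a mean per group over 8 arrays with the experiment as a block, and p-values are two-sided and adjusted by Benjamini-Hochberg over all genes. The experiment pairs the arrays because, per the labels, each experiment used a pool of cells, and deviations from group means correlated at 0.35 to 0.62. The steps were run on simulated data of the same layout, in which 26.3% of 1.5-fold and 91.7% of 2-fold changes were called. There were 218 false calls over 20 draws, beside 353 calls of 1.5-fold, 1229 of 2-fold and 1316 of 4-fold changes. All simulated arrays had the same spread for a gene, so none was like the array that stood apart. The shares called may therefore not hold for the measured arrays. Genes were named as members of the FXR, bile acid and transport lists and a panel of 12, as the members of other lists with the smallest p (up to 4 each), as the 15 highest and 15 lowest by the smaller of the 2 experiments' differences at a mean signal of at least 5, or as the 5 smallest p. Predicted genes were not named. The members and lists were chosen with earlier results of these data known. Alternatives were no block, quantile and cyclic loess scaling, other filters, array weights, the compared arrays alone, and leaving out each array.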

Additional observations from a re-analysis of the deposited data

Results flagged for a closer look

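The genes looked at were 109: the members of the FXR, bile acid and transport lists, the panel, the genes most alike in both experiments, the smallest p-values, and members of other lists with an unadjusted p under 0.05. For 14 of them (12.8%), every difference between GW4064 and its control had one sign without glucagon and the opposite sign with it. Over all 13845 genes 1723 (12.4%) did so, and for none of the 14 did limma's test of the difference pass (the lowest adjusted p among the named genes was 1.0). With the 69 members of other lists that were named only for ranking among the smallest p of their list, 31 of 178 genes (17.4%) had opposed signs. The values below are the effect with glucagon minus the effect without it, on the log2 scale. Among genes lower with GW4064 alone and higher with it on glucagon, the value was 0.88 for Ass1, 0.59 for Ppargc1a, 0.50 for Apcs, 0.38 for Atp8b1, a phospholipid flippase of the canalicular membrane, 0.32 for Gcgr, 0.26 for the exporter Abcg2 and 0.21 for Fetub. Among genes higher with GW4064 alone and lower with it on glucagon, it was -0.71 for Zbtb24, -0.64 for Zfp869, -0.48 for Slco1b2, -0.38 for Slco1a1, -0.33 for Slc10a1, -0.17 for Pcx and -0.14 for Nr4a1. Slco1b2, Slco1a1 and Slc10a1 take bile acids and organic anions up from blood. Ppargc1a differed by -0.05 and -0.21 without glucagon and by 0.38 and 0.55 with it.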

How the results depend on the processing

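The count of 0 genes for GW4064 against DMSO was 0 under all alternatives run except 1. Without the replicate block, which ignores the pairing, it was also 0 (limma, lowest adjusted p = 0.999, with 373 genes at an unadjusted p under 0.05). Array weights came out equal for the GW4064 arrays (0.3392 each), so that setting could not set apart the array of experiment 2. Leaving out an array with glucagon does not alter the difference between GW4064 and DMSO itself, only its spread. Leaving out each array gave 0 to 1228: the 1228 (458 higher, 770 lower) came without the GW4064 array of experiment 1, where GW4064 rests on the array that stood apart, and without that array the count was 0 (lowest adjusted p = 0.183, with 610 genes at an unadjusted p under 0.05). The interaction gave 0 to 261 in the same way. GW4064 on top of glucagon gave 7 with only its 4 arrays. Of genes at least 1.5-fold higher in both experiments 8 of 18 had a mean signal of at least 5, and of those lower 5 of 12; cyclic loess left 6 lower. The FXR-induced median of 0.10 was 0.15 with quantile scaling and 0.154 with cyclic loess, and leaving out each array gave -0.049 (without the DMSO array of experiment 1) to 0.208. Its sign thus rested on that DMSO array, and the cause was not tested. Among 180 genes of the naming rule (178 and 2 predicted genes), signs changed for 6 with quantile scaling, 7 with cyclic loess and 44 without the GW4064 array of experiment 2, and for 0 of those with an unadjusted p under 0.05.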

Other observations

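The model of the 4 glucagon arrays alone called 7 genes for GW4064 on top of glucagon, 6 higher and 1 lower. That fit has 1 residual degree of freedom, so its spread is borrowed almost wholly from the other genes, and the 8-array fit called 0. Without glucagon 5 of the 7 had the same sign in experiment 1 and 7 in experiment 2. Acot5, a peroxisomal acyl-CoA thioesterase, read 6.66 and 6.15 with DMSO and 8.11 and 6.52 with GW4064, and it differed by 1.31 and 1.03 with glucagon (limma adjusted p = 0.00863). Mybl1 (limma adjusted p = 0.00105) and Osgin1 (limma adjusted p = 0.0147) are given in the report. Astx5 differed by 1.23 and 0.28 without glucagon and 0.86 and 0.73 with it, and Mir101c by 1.64 and 0.61, then 0.81 and 0.76, from a signal at the low end of the array. Zfp972 differed by -0.00 and 0.42, then 0.79 and 0.77. Acnat2, of the acyltransferase family of Baat, differed by 0.12 and -0.48, then -0.89 and -0.72. Acot5, Astx5, Mir101c and Zfp972 were named after their values were seen.

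Genes linked to FOXO factors were listed after Depp1 and Cdkn1b had been seen, so their count supports nothing. Of 21, 0 were higher in both experiments without glucagon and 11 lower in both, with a median of -0.14, and under cyclic loess 1 and 8. Sesn1, a stress-induced inhibitor of growth signalling, read 5.60 and 6.69 with DMSO and 5.17 and 5.45 with GW4064, and differed by -0.24 and -0.66 with glucagon. Klf15 differed by -0.34 and -0.14, whereas Igfbp1 differed by -0.45 and 0.07, Foxo1 by -0.13 and -0.04, and G6pc by 0.00 and -0.01.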
